A study of Mus musculus with 721 samples.

Results

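The inner cell mass (ICM) cells of the mouse blastocyst at E3.5 were examined as all cells whose stage label is E3.5, which gave 99 of the 721 cells in the count table. The study profiled RNA of single cells picked from wild type C57Bl/6Babr embryos on 4 successive days of development, from E3.5 to E6.5, and strain and genotype did not differ between stages. E3.5 blastocysts were flushed, freed of the zona, and stripped of their outer trophectoderm by immunosurgery before the inner cells were taken apart and picked by hand. Full-length cDNA was amplified from each cell and sequenced in pairs of reads of 100 bp. The comparison groups were 27 epiblast-like and 78 primitive endoderm-like (PrE-like) cells of the same 5 E4.5 embryos, 260 E5.5 cells of 8 embryos without those labelled visceral endoderm, and 250 E6.5 cells of 13 embryos, which mix epiblast, streak and endoderm and include cells titled E6.75. Every E4.5 cell was placed in 1 of the E4.5 classes. The paper set aside some E4.5 cells with markers of both lineages as intermediate, and such cells were not set aside here.

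At E3.5, the ICM is the group of cells inside the blastocyst from which both the epiblast and the primitive endoderm arise. Its cells are known to express epiblast regulators such as Nanog and endoderm regulators such as Gata6 together before they part into these lineages. The ICM is also the stage at which DNA methylation is low, at which products of the egg and of cleavage-stage genes are being cleared, and at which pyruvate is a main fuel, with glycolysis rising around implantation. Genes are ordered below by these roles.

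The E3.5 cells came from 9 numbered embryos and from 9 cells with no embryo number, which were taken as 1 further sample. Embryos 1 to 5 (plate P8) gave 3 to 4 cells each, and embryos 6 to 9 (plate P9) gave 28, 17, 11 and 18 cells. The cells without an embryo number carried the plate label P11.P6.P10. Whether they came from 1 embryo is not known. Total counts per cell were 187196 to 1442116 (median 553935), with a median of 6258 genes detected. Cells of plate P8 had higher totals (median 903545.5) and fewer genes detected (median 5625) than those of plate P9 (481625.5 and 6290.5). No pair of cells had identical values, and 9 of the 99 wells were labelled double, that is, holding a pair of cells. Some wells of the E4.5 and E5.5 comparison groups were labelled double as well. Plates P8 and P9 hold no cell of a later stage, so stage and plate cannot be told apart there, whereas the label P11.P6.P10 is also carried by E5.5 embryos. That label joins several plate names, so whether its E3.5 and E5.5 cells shared a plate is not known. Cells were summed per embryo, and values below are CPM (counts per 1e6 counts) of these sums with TMM-scaled library sizes, so that n = 10 for E3.5. In a sum, fewer cells with a transcript and less of it per cell cannot be told apart.

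The labelled identity was checked against 5 markers. Dppa3, a maternal and germline chromatin protein, and Tfcp2l1 and Fbxo15, both linked to naive pluripotency, had counts in all 99 cells. Nanog was counted in 93 cells and Gata6 in 90, and 84 cells held both (79 when each cell was thinned to 150000 counts), 76 of them among the 90 wells labelled single. No cell lacked both. Across cells within embryos, the levels of Nanog and Gata6 had a correlation of r = -0.221 over 83 cells, those of plate P9 and those without an embryo number. It is given as a description since the cells share embryos and depth.

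Dppa3 was between 3775.5 and 6147.8 CPM in the E3.5 embryo sums (median 4778.8). Its means were 268.2 in E4.5 epiblast-like cells, 56.0 in PrE-like cells, 58.7 in E5.5 and 5.34 in E6.5 cells, and no later sum reached the E3.5 range. The log2 fold change against the epiblast-like cells was 4.19 (SE 0.69, adjusted p = 9.11e-06, quasi-likelihood test of edgeR, adjusted after Benjamini-Hochberg over all genes, as for every adjusted p-value below). Fbxo15 ranged from 343 to 1041 CPM (median 538) and was likewise above every later sum, with a log2 fold change of 3.25 (SE 0.93) against the epiblast-like and 3.12 (SE 0.92) against the PrE-like cells. The latter call was lost with the embryos of plate P8 alone (2.79, adjusted p = 0.0524). Tfcp2l1 ranged from 333 to 983 CPM (median 668). It was higher than in the PrE-like cells by 4.16 log2 (SE 0.98), whereas the difference from the epiblast-like cells, 1.99 (SE 0.86), did not pass the test (adjusted p = 0.0821, but 0.0121 in thinned cells).

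Nanog was the most uneven marker between embryos, from 32.9 CPM in embryo 4 to 726.7 in the cells without an embryo number (median 295). It was higher than in the PrE-like cells by 6.15 log2 (SE 0.75). Its difference from the epiblast-like cells was 1.40 (SE 0.57) with an adjusted p of 0.0594 and overlapping sums, and it passed when embryo 2, 3 or 4 was left out (adjusted p = 0.0429, 0.0453 and 0.0296) and with DESeq2 (adjusted p = 0.0339). Gata6, which specifies the primitive endoderm, showed the reverse. E3.5 sums averaged 231 ± 92.9 CPM (SD, n = 10), with a median of 232 and a highest value of 390, against a mean of 5.38 in the epiblast-like cells (log2 fold change 5.35, SE 1.2) and of 180 in the PrE-like cells, where the difference of 0.36 (SE 0.9, adjusted p = 0.838) did not pass. The marker plot shows each sum by plate.

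**Figure D1:**
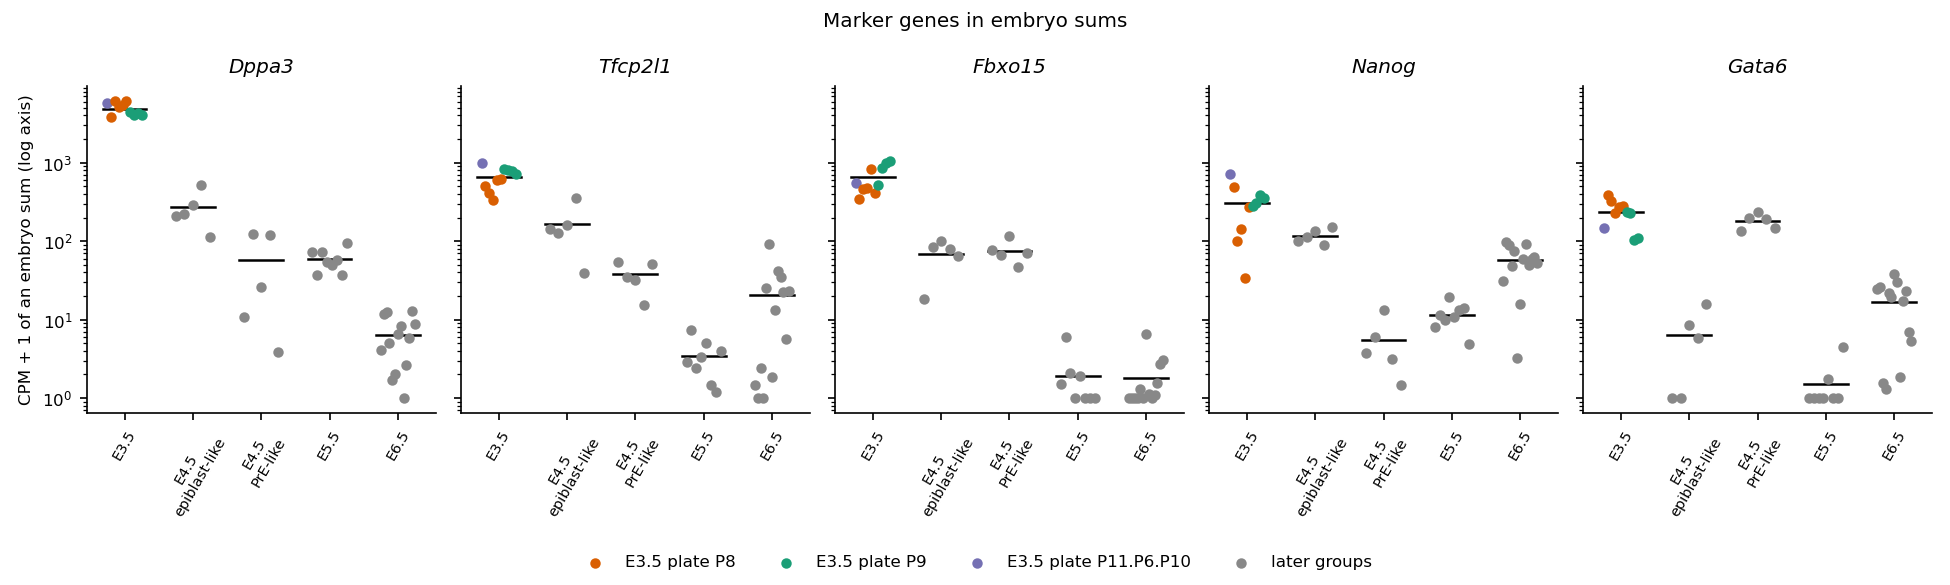
CPM + 1 (log axis) of the 5 marker genes in each embryo sum, with the E3.5 sums coloured by plate and bars at the group means. All 10 E3.5 sums of Dppa3 and Fbxo15 lie above every later sum, while Nanog overlaps the E4.5 epiblast-like sums and Gata6 overlaps the E4.5 PrE-like sums.

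Markers of other cell types were measured as well. Of the 18 trophectoderm markers listed, Krt19 and Atp12a had no count in any of the 99 cells, which allows a share of up to 3.03% of cells with a count, a limit for counting error only that takes no account of shared embryos. Cdx2, which defines the trophectoderm, was counted in 4 cells, Gata3 in 7, Elf5 in 2 and Krt18 in 19, while Krt8 was counted in 68 and Eomes in 57. A pair of cells, in embryos 2 and 4 of plate P8, had more than 1 count each of Elf5, Wnt7b and Tex19.1, and so met a rule of the methods for the removal of trophoblast cells. The cell of embryo 4 had 459 CPM of Cdx2, 1885 CPM of Krt18 and 1238 CPM of Dppa1, and no count of Sox2 or Spp1. Of the 16 trophectoderm markers tested, 4 were higher at E3.5 than in both E4.5 classes (Cdx2, Hand1, Krt7 and Krt8), beside 3.62% of all genes tested. Tfap2a was higher and Krt19 lower than in the PrE-like cells alone. Without the pair of cells, Tfap2a fell from 8.17 to 4.41 log2 and was no longer called (adjusted p = 0.108). Id2, not called with them, was then lower against both classes (-5.62, adjusted p = 9.39e-06, and -6.48, adjusted p = 1.2e-06). Elf5, a gene of the rule that picked the pair, had no count in the other 97 cells. Without the pair it was called lower than in epiblast-like cells (-7.24, adjusted p = 0.0419). Cdx2 kept its call without the pair of cells (adjusted p = 0.0427 and 0.0235) but lost it in embryos of plate P9 alone (adjusted p = 0.36 and 0.221), and Krt7 lost it without embryo 6 (adjusted p = 0.406 and 0.154) and was 0.00 with embryos of plate P8 alone. In plate P9 alone Hand1 lost its call against epiblast-like cells (10.30, adjusted p = 0.0505) and Krt8 against PrE-like cells (1.91, adjusted p = 0.0539). Of the 14 blood and immune markers, hemoglobin genes and Ptprc were at 0 in all 99 cells, and Csf1r was counted in 17.

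To ask which genes set E3.5 cells apart, the embryo sums were compared with each later group over 14035 genes. Calls needed an adjusted p no larger than 0.05 with a log2 fold change beyond 1 in either direction. Of these, 9.75% were higher and 14.3% lower at E3.5 than in the epiblast-like cells, and 7.25% were higher and 14.6% lower than in the PrE-like cells. The shares were 11.7% and 22.1% against E5.5 and 15.2% and 26.6% against E6.5. These groups hold 8 and 13 sums beside 5 in each E4.5 class, so the shares are not compared between groups. Against both E4.5 classes together, 3.62% were higher and 7.29% lower. These comparisons share the same E3.5 sums. Genes called higher in all 4 comparisons numbered 356 (2.54%), and genes called lower in all 4 numbered 786 (5.6%). The median E3.5 level was 129 CPM for the former and 0.1505 CPM for the latter, beside 13.03 CPM over all genes tested, so most of the genes that were lower in every comparison were near 0 in the E3.5 sums. The 356 genes had medians of 9.61%, 10.7%, 8.36% and 8.85% of their E3.5 level in the epiblast-like, PrE-like, E5.5 and E6.5 groups, and 72, 53, 51 and 41 of them had no count at all there.

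In 128 of the 356 genes, every E3.5 sum was above every later sum, and 110 of these had a mean of at least 50 CPM. The 15 among them with the largest smallest fold change are named here. They were Bhmt, Tat, Spic, Alppl2, AA467197, Trim43c, Pramel4, Pramel5, Pramel6, Gm12790, Gm5096, Gm5612, Gm15622, AC134841.1 and AC140240.1. Most were at or near 0 in every later group. RefSeq promoters (build GRCm38.p6, 250 bases before to 50 after the start) were found for 9 of the 15. Bhmt (chr13:93637709-93638008, minus strand) and Tat (chr8:109990186-109990485, plus strand) are shown because they are the only promoters of the 9 with any of 6 motifs searched on both strands. Capitals mark the motif.
Bhmt: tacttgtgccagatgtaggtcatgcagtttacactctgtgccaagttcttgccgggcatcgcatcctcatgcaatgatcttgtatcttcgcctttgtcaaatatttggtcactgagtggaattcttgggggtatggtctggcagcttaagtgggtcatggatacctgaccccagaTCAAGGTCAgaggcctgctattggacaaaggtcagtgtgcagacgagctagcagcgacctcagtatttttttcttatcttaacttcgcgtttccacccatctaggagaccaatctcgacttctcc
Tat: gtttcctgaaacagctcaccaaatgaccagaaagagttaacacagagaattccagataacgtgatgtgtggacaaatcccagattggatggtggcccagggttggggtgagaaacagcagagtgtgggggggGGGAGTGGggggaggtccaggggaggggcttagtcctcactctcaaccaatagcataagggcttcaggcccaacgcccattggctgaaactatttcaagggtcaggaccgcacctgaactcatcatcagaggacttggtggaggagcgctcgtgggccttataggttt

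The capitals in Bhmt are TCAAGGTCA, the extended binding motif of the orphan receptors Esrrb and Nr5a2, which begins 75 bases before the start and is found in 0.4231% of 32851 RefSeq promoters. Those in Tat match GGGNGTGG, a motif of Kruppel-like factors, found in 17.62% of promoters. TATAAA (13.62% of promoters), TTCNNNGAA (8.298%), TCACGTGA (0.9741%) and ATGCAAAT (1.735%) had no match in the 9 windows. The median GC content of the 9 windows was 48%, beside 52.67% over all promoters. A match describes the letters of the window and not binding in these cells.

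Pramel4 and Pramel5 belong to the PRAME family of leucine-rich repeat proteins and lie on chromosome 4. Their windows (chr4:144058875-144059174, plus strand, and chr4:144280417-144280716, minus strand) are shown because they share the longest run of any of the 36 pairs of the 9 promoters, 111 bases in capitals, which no promoter of another gene in the table holds. The median longest run over the 36 pairs was 8.5 bases. Reads of such close copies may be split or lost at the mapping filter, so the levels of single PRAME-family and Trim43 genes are uncertain.
Pramel4: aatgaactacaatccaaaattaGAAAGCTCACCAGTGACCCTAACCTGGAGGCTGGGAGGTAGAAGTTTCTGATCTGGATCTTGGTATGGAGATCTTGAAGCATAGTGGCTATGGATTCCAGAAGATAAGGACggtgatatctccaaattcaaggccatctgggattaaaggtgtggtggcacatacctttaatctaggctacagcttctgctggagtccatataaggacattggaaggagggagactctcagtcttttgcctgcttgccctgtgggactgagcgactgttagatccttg
Pramel5: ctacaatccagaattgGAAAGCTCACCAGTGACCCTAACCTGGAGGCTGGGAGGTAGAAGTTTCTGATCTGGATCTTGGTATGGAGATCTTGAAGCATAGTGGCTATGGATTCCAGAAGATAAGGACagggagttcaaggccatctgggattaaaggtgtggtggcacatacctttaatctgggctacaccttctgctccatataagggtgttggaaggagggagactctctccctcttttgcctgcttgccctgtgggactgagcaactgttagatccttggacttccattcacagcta

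Bhmt encodes betaine-homocysteine methyltransferase, which remakes methionine from homocysteine with betaine, an enzyme best known from liver. It ranged from 615 CPM in embryo 1 to 4088 in the cells without an embryo number (median 1502.5, mean 1978 ± 1145, SD, n = 10). Later means were 3.57 CPM in epiblast-like, 0.193 in PrE-like and 0.0515 in E6.5 cells, and no count was found at E5.5, where the level was at least 144889-fold lower. The log2 fold change was 9.12 (SE 1.05, adjusted p = 2.81e-08) against the epiblast-like and 12.64 (SE 1.22) against the PrE-like cells. Gm15622 is an antisense gene inside Bhmt. It was 25.5 to 515.5 CPM in E3.5 sums and 0 in every later sum, and reads of the pair cannot be told apart without strand. Tat, tyrosine aminotransferase, which starts tyrosine breakdown, ranged from 16.8 to 121 CPM (median 57.8) and was at 0 in both E4.5 classes, at least 403-fold and 1399-fold lower.

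Spic, an Ets-family transcription factor, was between 400 and 1062 CPM (median 505). It fell to 5.80 CPM in epiblast-like cells (log2 fold change 6.64, SE 0.73, adjusted p = 1.7e-07) and to 0.120 in PrE-like cells (11.68, SE 0.94), with no count at E5.5 or E6.5. AA467197, a small mitochondrial protein, ranged from 686 to 2924 CPM (median 989) and averaged 4.16 CPM in the epiblast-like cells, with log2 fold changes of 8.26 (SE 1.26) and 8.20 (SE 1.24). Alppl2, an alkaline phosphatase of the placental type, ranged from 33.7 to 406 CPM (median 198), and in the epiblast-like sums its count was 0, at least 1347-fold lower. Of the unnamed transcripts, Gm12790 ranged from 87.3 to 330.2 CPM, Gm5096 from 44.9 to 628, AC134841.1 from 111 to 607 and AC140240.1 from 72.6 to 610. Gm5612, annotated as a processed pseudogene, ranged from 81.9 to 421 CPM, and its reads may come from its parent gene.

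All 15 calls against each of the 4 later groups held under each alternative tried. Under the label P11.P6.P10, which both stages carry, 87.08% of all 1649 genes called higher than at E5.5 were higher in the E3.5 sum than in the E5.5 embryos. Those calls drew on the same sums among others. The 15 genes were chosen with every E3.5 sum above every later sum, so their direction there was fixed by that choice. The E3.5 sum of that label had 4088 CPM of Bhmt and 1062 of Spic, against 0 in both of its E5.5 embryos.

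**Figure D2:**
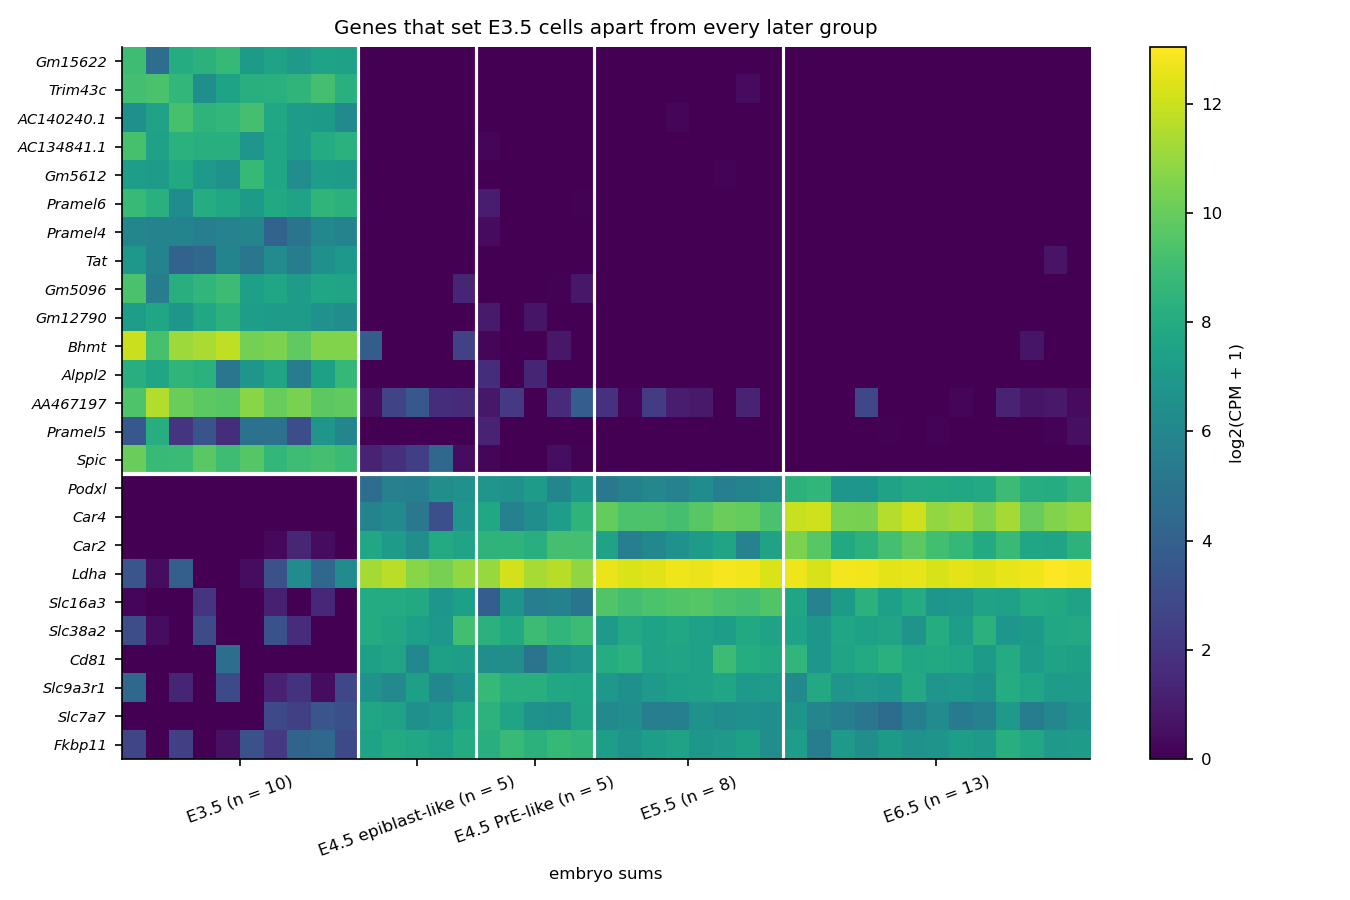
log2(CPM + 1) in every embryo sum (columns, 5 groups) of the 15 genes named as higher (rows above the white line) and the 10 named as lower (rows below it) at E3.5 than in every later group. In every row the 10 E3.5 sums lie apart from all 31 later sums, and for the genes below the line they are mostly at or near 0.

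Among the 786 genes lower in all 4 comparisons, 73 had every E3.5 sum below every later sum, 37 of them with a mean of at least 50 CPM in each later group. The 10 with the largest smallest drop were Podxl, Car4, Car2, Ldha, Slc16a3, Slc38a2, Slc7a7, Slc9a3r1, Cd81 and Fkbp11. Podxl, a sialomucin of apical membranes, had no count in any E3.5 cell and means of 60.9 and 109 CPM in the E4.5 classes, at least 1193-fold and 2130-fold higher than at E3.5. Car4, a membrane carbonic anhydrase, also had no E3.5 count, with means of 57.0 and 173 CPM in the E4.5 classes that reached 2387 CPM in the E6.5 embryos. Car2, the cytosolic carbonic anhydrase, did not exceed 1.61 CPM at E3.5 and was 178 CPM in the epiblast-like cells, a log2 fold change of -9.21 (SE 0.60).

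Ldha, which converts pyruvate to lactate, ranged from 0 to 78.5 CPM at E3.5 (median 9.16) and had means of 2121 and 2883 CPM in the E4.5 classes (log2 fold changes -6.63, SE 0.66, and -7.07, SE 0.67) and of 6196 (E5.5) and 6294 (E6.5) CPM. Slc16a3, a lactate exporter, was at most 2.90 CPM at E3.5 and 207 in the epiblast-like cells. The amino acid transporters Slc38a2 and Slc7a7 were at most 8.78 and 9.85 CPM, beside 259 and 160 CPM in the epiblast-like cells. Cd81, a tetraspanin, was 24.9 CPM in embryo 4 and 0 in the other 9 sums. The call of Cd81 against the PrE-like cells did not pass with DESeq2 (adjusted p = 0.127), and the other calls of the 10 genes held in each alternative. Under the label P11.P6.P10, 86.81% of all 3102 genes called lower than at E5.5 were lower in the E3.5 sum than in the E5.5 embryos. The direction of the 10 genes there was likewise fixed by their choice. Ldha was at 9.83 CPM in the E3.5 sum and at 6353 and 4991 CPM in the E5.5 embryos of that label.

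Gene lists were then read by role, as counts called in each direction beside the shares of all genes given above. Median log2 fold changes over all genes tested were 0.00 against epiblast-like and -0.15 against PrE-like cells. The autophagy genes, which build and load the vesicles that carry cytoplasm to the lysosome, were called higher in 14 and lower in 0 of 28 against the epiblast-like cells, and higher in 10 and lower in 2 (Gabarap and Wipi1) against the PrE-like cells. The medians were 2.08 (1.43 with genes at 0 set to their bound) and 1.13. All 10 called higher against both E4.5 classes were higher in all 4 comparisons. They were Calcoco2, Map1lc3a, Map1lc3b, Gabarapl2, Sqstm1, Atg2a, Atg4b, Atg13, Atg14 and Ulk1, that is, cargo receptors, the ubiquitin-like proteins that coat the vesicle, and the kinase Ulk1 with its partner Atg13.

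Calcoco2, a cargo receptor, was among the highest transcripts of these cells, at 5019 to 8195 CPM (median 7019). Its means on plates P8 and P9 were 7002 and 7001 CPM. It fell to 151 CPM in epiblast-like cells (log2 fold change 5.54, SE 0.96, adjusted p = 2.35e-05), 18.9 in PrE-like cells (8.54, SE 1.11) and 0.289 in the E6.5 embryos. Map1lc3b, the LC3 protein that is tethered to the vesicle, ranged from 3941 to 6443 CPM and was at 524 and 458 CPM in the E4.5 classes (3.20, SE 0.27, and 3.39, SE 0.28). Gabarapl2, of the same protein family, ranged from 2780 to 4510 CPM, with 761 and 168 CPM at E4.5 (2.25, SE 0.18, and 4.43, SE 0.20). No E3.5 sum of these 3 genes overlapped any later sum. The LC3-processing protease Atg4b ranged from 159 to 941 CPM, above the E4.5 sums. Atg5, which joins the conjugation step, was 52.7 to 258 CPM and passed no test (adjusted p = 0.458 and 0.331).

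Lysosomal genes were called higher in 10 and lower in 1 of 29 against epiblast-like cells, but higher in 4 and lower in 8 against PrE-like cells (medians 0.79 and 0.04). Ctsd, a cathepsin, Glb1, which is the acid beta-galactosidase, and Psap, the precursor of saposins, were higher against both, and Grn was the other gene higher than in the PrE-like cells. Glb1 ranged from 395 to 697 CPM, with means of 58.3 and 130 CPM at E4.5 (log2 fold changes 3.08, SE 0.38, and 1.93, SE 0.35). Psap ranged from 344 to 2175 CPM and was above every E4.5 sum, near 110 CPM, with the 5 embryos of plate P8 all below those of P9. Ctsh, another cathepsin, was at most 2.72 CPM at E3.5 and 104 CPM in the PrE-like cells.

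Fatty acid oxidation genes were called higher in 6 and lower in 1 of 22 against epiblast-like cells and higher in 7 and lower in 2 against PrE-like cells (medians 0.79 and 0.50). Acadl, the long-chain acyl-CoA dehydrogenase, ranged from 302 to 754 CPM (median 415) and was at 15.9 and 42.6 CPM in the E4.5 classes (4.87, SE 0.52, adjusted p = 1e-09, and 3.44, SE 0.47). Acadm, Acadvl, Etfa and the carnitine carrier Slc25a20 were also higher against both, whereas Acsl1, an acyl-CoA synthetase, was lower, as was Acsl3 against the PrE-like cells. Without the pair of cells with trophoblast genes, Acsl1 no longer passed against the PrE-like cells (adjusted p = 0.0508). Lipid droplet and glycerolipid genes were higher in 7 and lower in 1 of 22, and higher in 5 and lower in 4 (Agpat3, Cideb, Fabp3 and Lpin2), with medians of 1.84 (1.19 at the bound) and 0.08. Plin2, which coats droplets, ranged from 215 to 970 CPM, with 23.8 and 21.1 CPM at E4.5 (4.34, SE 0.65, and 4.51, SE 0.66) and no overlap. Agpat2, Cidea, Fabp5 and Lpcat3 were higher as well. Plin3, a related coat protein, was 298 to 660.5 CPM and passed neither test.

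Glycolysis genes went the other way. None of 19 was called higher and 13 were called lower against each E4.5 class (medians -1.85 and -1.48), 11 against both and 10 in all 4 comparisons. Eno1, enolase, ranged from 34.3 to 117 CPM at E3.5 and had means of 765 and 713 CPM at E4.5 (log2 fold changes -3.46, SE 0.22, and -3.36, SE 0.22). Pkm, pyruvate kinase, ranged from 51.7 to 726 CPM, below every E4.5 sum (means 1597 and 1416), and was 158 CPM on plate P8 and 567 on P9. Hk2, which phosphorylates glucose, ranged from 25.7 to 147 CPM, with means of 236 and 161. Gpi1 was 74.5 to 222 CPM at E3.5 and passed neither test (adjusted p = 0.109 and 0.131).

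Genes of pyruvate entry and the citrate cycle were mixed, with 7 higher and 4 lower of 29 against epiblast-like and 6 higher and 4 lower against PrE-like cells. Brp44, Aco1, Dlat and Pdp2 were higher against both. Pdp2, a phosphatase that activates pyruvate dehydrogenase, was 223 to 847 CPM at E3.5 and 21.4 and 13.7 CPM at E4.5 (4.16, SE 0.60, and 4.79, SE 0.62). Pdk1, a kinase that inactivates it, was at most 8.15 CPM at E3.5 and 61.1 and 17.6 CPM at E4.5 (-4.36, SE 0.70, and -2.56, SE 0.68). Pcx, which carboxylates pyruvate, was lower (-3.62, SE 1.11, and -3.85, SE 1.11), as were Mdh1 and Me2. Mdh2 passed neither test. Glutathione and antioxidant genes were higher in 10 and lower in 5 of 26 against epiblast-like and higher in 9 and lower in 1 against PrE-like cells (medians 0.87 and 0.99). Sod2, the mitochondrial superoxide dismutase, ranged from 464 to 908 CPM, above every E4.5 sum, with means of 172 and 91.3 there. Gss, Gclm, Gsto1, Gstp1, Prdx5 and Prdx6 were higher too, and Mgst3 was lower against both. Gsta4, Prdx2, Sod1 and Txnrd1 were lower than in the epiblast-like cells alone. In the choline, betaine and methionine list, 3 of 18 were higher and 6 lower against epiblast-like cells, and 5 higher and 2 lower against PrE-like cells. Pemt, which makes phosphatidylcholine by methylation, was higher with Bhmt and Bhmt2, and the glycine methyltransferase Gnmt and Aldh7a1 were lower. Cth and Dmgdh were higher against the PrE-like cells alone.

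**Figure D3:**
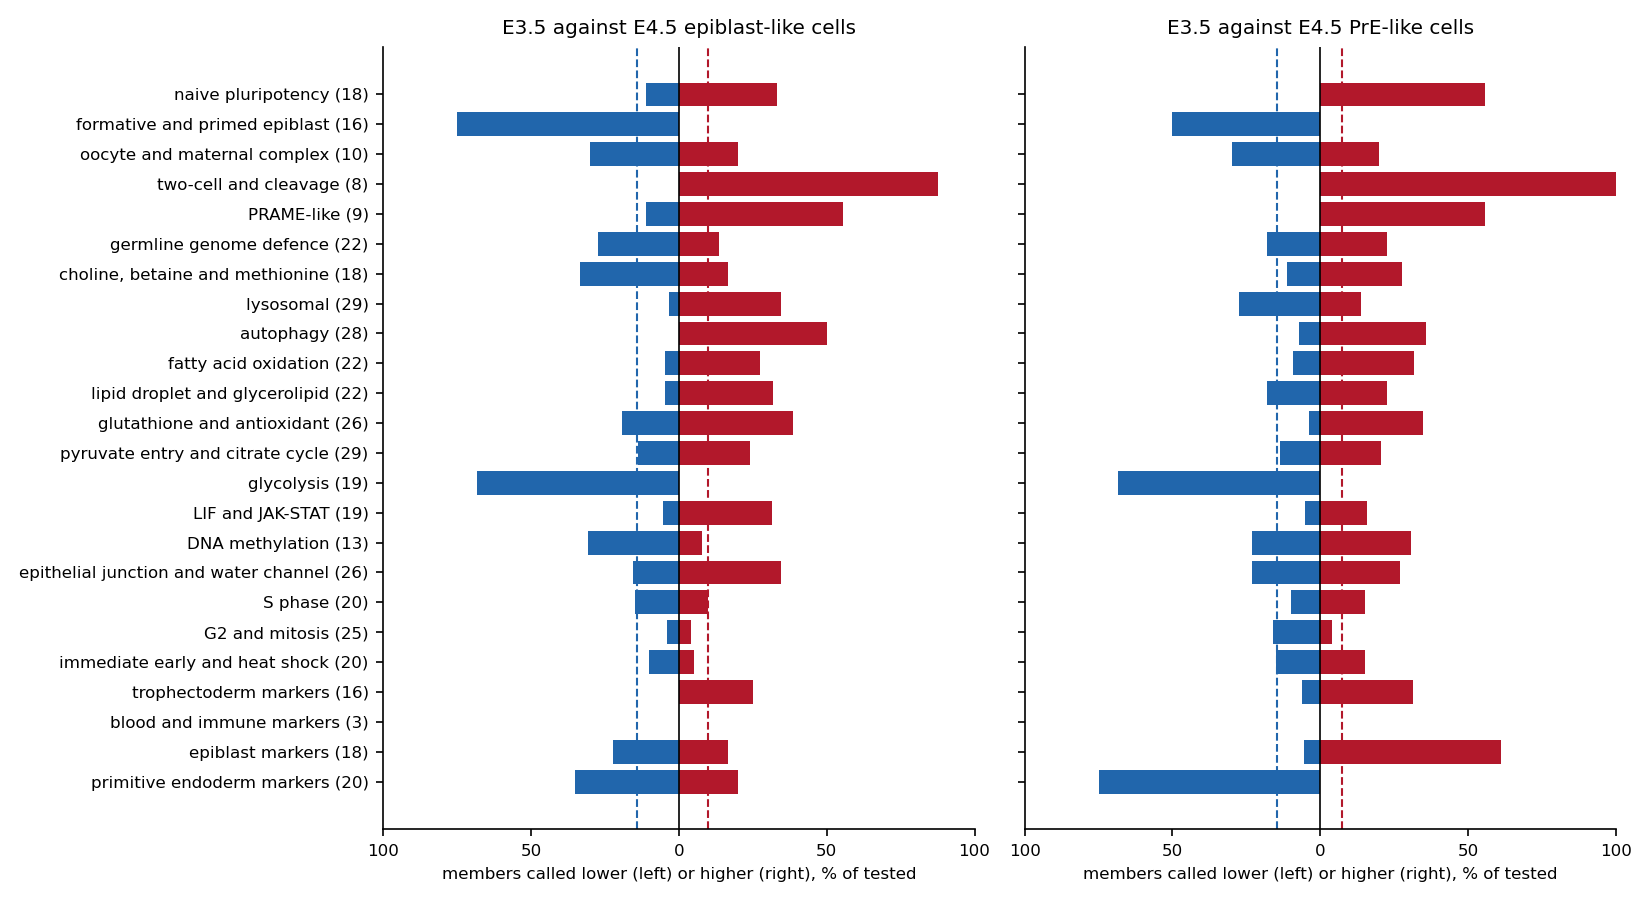
Share of the tested members of each gene list (number in brackets) called lower (left, blue) or higher (right, red) at E3.5 than in E4.5 epiblast-like and PrE-like cells, in percent, with dashed lines at the shares over all 14035 genes. Autophagy, cleavage-stage and PRAME-like bars extend to the right in both panels, glycolysis and formative bars to the left. Cleavage-stage and PRAME-like genes could pass the filter through their E3.5 level alone, so their bars are not to be weighed against the dashed lines.

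Genes known to switch on during cleavage were partly present. Of 20 such genes with a row, 10 had no count in any E3.5 cell, among them Zscan4c, Zscan4d, Zscan4f and Zfp352. The 8 that passed the filter on low counts could pass through their E3.5 level alone, so their calls are a description. They were higher in 7 of 8 against the epiblast-like and in 8 of 8 against the PrE-like cells, with medians of 7.22 (4.89 at the bound) and 8.68 (8.61). Khdc1a, Khdc1b, Khdc1c, Crxos1, Trim43b, Trim43c and Spic were higher in all 4 comparisons, and Obox6 was not called against the epiblast-like cells. Crxos1, an oocyte and embryo homeobox gene, ranged from 725 to 1298 CPM, with at most 38.4 and 74.7 CPM in an E4.5 sum (5.78, SE 1.05, and 4.75, SE 0.98). Trim43c ranged from 89.4 to 635 CPM (median 342) and had no count in either E4.5 class, at least 2364-fold and 8195-fold lower. Khdc1b and Khdc1c were low, with medians of 0.997 and 1.40 CPM at E3.5.

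Of the PRAME-like genes, 9 of 19 rows passed the filter. As in the cleavage-stage list, a gene could pass through its E3.5 level alone, so these calls are a description too. Pramel4, Pramel5, Pramel6, Pramel7 and Gm13102 were higher in all 4 comparisons, and Pramef8 was lower than in the epiblast-like cells (medians 12.30, or 8.16 at the bound, and 5.86). Pramel7, which is known to promote the loss of Uhrf1 protein and DNA methylation, ranged from 27.4 to 188 CPM and its count in the epiblast-like sums was 0, at least 757-fold lower. Pramel6 ranged from 80.3 to 437 CPM (median 254). Pramel5 was uneven, at 281 CPM in embryo 1 and 2.31 in embryo 4. Pramef12 was 0 to 150 CPM and passed neither test.

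Of 20 oocyte genes with a row, 10 were tested. Against E5.5 cells 3 were higher and 1 lower, and against E6.5 cells 6 were higher and 1 lower (median 2.11). Against E4.5 cells oocyte genes showed no one direction, with 2 higher and 3 lower of 10 against each class. Dppa3 was higher against both, Nlrp4c against epiblast-like and Zfp57 against PrE-like cells. Kpna7 was lower than in epiblast-like and Zar1 than in PrE-like cells, while Ooep and Zbed3 of the subcortical maternal complex were lower against both, with Zbed3 not passing against PrE-like cells once the pair of cells with trophoblast genes was left out (adjusted p = 0.0664). Ooep was 0 to 49.8 CPM at E3.5 and 254 and 123 CPM at E4.5 (-3.36, SE 0.62, and -2.31, SE 0.61). Among 22 germline genome defence genes, 6 were higher and 4 lower against E5.5 cells, and 11 higher and 2 lower against E6.5 cells. At E4.5, 3 were higher and 6 lower against epiblast-like cells, and 5 higher and 4 lower against PrE-like cells. Tex19.2 ranged from 75.0 to 470 CPM (3.80, SE 0.86, and 3.82, SE 0.85) and Dppa2 from 692 to 1280 CPM, above every E4.5 sum, whereas Hormad1 was at most 13.4 CPM and lower. Tdrkh was also higher than in the epiblast-like cells, and Dppa4, Gtsf1l and Tex19.1 than in the PrE-like cells, where Ddx4, Sycp3 and Tex101 were lower.

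De novo DNA methyltransferases were low. Dnmt3b ranged from 11.3 to 89.8 CPM at E3.5 against 420 and 570 CPM at E4.5 (-3.59, SE 0.30, and -4.03, SE 0.30). Dnmt3a, the other de novo enzyme, ranged from 0 to 95.2 CPM against 412 and 473 (-3.16, SE 0.42, and -3.36, SE 0.42), and the cofactor Dnmt3l was lower against both too. Tet2, which oxidizes methylcytosine, ranged from 151 to 486 CPM and was higher (2.25, SE 0.74, and 2.90, SE 0.77). Uhrf1, which guides maintenance methylation, was 44.0 to 514 CPM and was not called. Over the 13 genes, 1 was higher and 4 lower against epiblast-like cells, Dnmt1 included. Against PrE-like cells 4 were higher (Tet1, Tet2, Trim28 and Zfp57) and 3 lower, with Dnmt1 not among them.

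Pluripotency and lineage genes were as follows. Of 18 naive genes, 6 were higher and 2 (Dppa5a and Gbx2) lower against epiblast-like cells (median 1.76), and 10 were higher and 0 lower against PrE-like cells, with Prdm14, Dppa3, Stat3 and Fbxo15 higher against both. Prdm14, a germline and naive regulator, ranged from 9.35 to 119 CPM, with 0.541 CPM in the epiblast-like cells. Of 16 formative and primed genes, 0 were higher, 12 were lower against epiblast-like and 8 against PrE-like cells (medians -3.67, and -2.30 or -2.17 at the bound). Lef1 and Fgf5 had no count at E3.5, and Lef1 was at least 1583-fold higher in the epiblast-like cells. Epiblast markers were higher in 3 (Fbxo15, Pdpn and Prdm14) and lower in 4 (Dppa5a, Etv4, Morc1 and Otx2) of 18 against epiblast-like cells, and PrE markers were lower in 15 and higher in 0 of 20 against PrE-like cells. Srgn was at most 4.23 CPM and Sox7 at most 0.993 CPM at E3.5, against 1812 and 202 CPM in the PrE-like cells, whereas Sox17 (0 to 117 CPM) passed neither test. In the LIF and JAK-STAT list 6 were higher and 1 lower of 19, then 3 and 1 (Stat3, Pim1 and Socs2 higher), with Stat3 at 36.1 to 211 CPM (2.71, SE 0.69, and 2.23, SE 0.67) and the receptor Lifr lower against both E4.5 classes.

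Epithelial and water channel genes were higher in 9 and lower in 4 (Aqp11, Cldn6 and Marveld2 among them) of 26, then 7 and 6, in a list that shares the trophectoderm's functions. Aqp3, which passes water and glycerol, ranged from 165 to 658 CPM, with 4.86 and 0.290 CPM at E4.5 (6.14, SE 1.63, and 9.90, SE 1.95) and no overlap. Cldn7, a tight junction protein, ranged from 89.0 to 983 CPM and was higher (3.66, SE 0.53, and 2.06, SE 0.48). Without the pair of cells that carried trophoblast genes, the log2 fold changes of Aqp3 were 6.10 and 9.86, and both calls held. S phase genes were higher in 2 (Mcm2 and Rrm2) and lower in 3 (Ccne2, Mcm3 and Pcna) of 20, then in 3 and 2 (Cdt1 higher and Prim1 lower besides). G2 and mitosis genes were higher in 1 and lower in 1 of 25, then in 1 and 4 (Kif23, Mki67 and Ube2c lower besides). Pttg1, securin, ranged from 343 to 1244 CPM and was higher (2.54, SE 0.37, and 2.81, SE 0.38), while the kinetochore protein Cenpf was lower (-2.14, SE 0.27, and -1.56, SE 0.27). Of 20 immediate early and heat shock genes, read as signs of handling, 1 was higher (Junb) and 2 lower (Fosb and Hspb1) against epiblast-like cells. Against PrE-like cells 3 were higher (Hsp90aa1, Myc and Nr4a1) and 3 lower (with Atf3). Hspb1 was at most 25.8 CPM, against 418 and 446 CPM at E4.5. Hsph1 was 333 to 1029 CPM and was called against neither E4.5 class. Of the same 20 genes, 3 were higher and 3 lower against E5.5 cells, and 9 higher and 3 lower against E6.5 cells. Shares over all genes against E6.5 were 15.2% and 26.6%. The methods give TrypLE for taking apart E6.5 embryos and Accutase for ICMs, and the part of handling was not tested.

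Levels between genes were compared per kb of exon, over the 21178 of 24483 rows with an exon length. Genes with close copies may lose reads at the mapping filter and so rank too low. Dppa5a was highest with 7302 ± 2896 CPM per kb (SD, n = 10), followed by Dppa3 with 5504 ± 1000 and Calcoco2 with 4328 ± 577. Actb (3631), Rplp1 (2964), Gm20390, Cox4i1, 2410004A20Rik (2096) and Hsp90ab1 (2030) were also among the highest 10. Dppa5a and Dppa3 differed by less than the SD of Dppa5a, Dppa3 and Calcoco2 by more than either SD, and Calcoco2 and Actb by less than the SD of Actb. Gm20390 overlaps the Nme genes on the same strand, so its reads may be theirs. Dppa5a was lower at E3.5 than in the epiblast-like cells (log2 fold change -1.42, SE 0.42, adjusted p = 0.00915). 2410004A20Rik, a transcript with no named role, ranged from 3575 to 5330 CPM and had means of 892, 110, 3.97 and 0 CPM in the later groups.

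Embryos of plates P8 and P9 were compared in a fit of their own over 8996 genes. Only 7 genes (0.0778%) were higher and 5 (0.0556%) lower on P8, while 877 had an unadjusted p under 0.05. Wtap, of the RNA methylation complex, averaged 1324 CPM on P8 and 284 on P9 (2.22, SE 0.32, adjusted p = 0.0281), and the proteasome gene Psma7 6094 and 2613 CPM. Enah, Senp6, Zmpste24, Rpl5 and Myef2 were the others. Psap, Rpl37a, Rplp1 and Rpl32 were among those lower. The count of calls changed with the tool and the depth: DESeq2 gave 147 and 76, and cells thinned to 150000 counts gave 38 and 31. Leaving out double wells gave 1 and 0, but embryos 1 and 5 of plate P8 then fell below 3 cells and left the fit. Leaving out any 1 of embryos 5 to 9, with all wells kept, also gave 1 and 0. P8 sums hold 3 to 4 cells each, fewer than those of P9. With 3 cells drawn from each embryo, 5 genes were higher (3 of the 7) and 17 lower (all 5 included).

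Variation between cells was measured in 83 cells, within the sums of embryos 6 to 9 and the sum of cells without an embryo number. It covered 5795 genes with a mean of at least 10 CPM in each of these 5 sums. The sum without an embryo number may hold more than 1 embryo, and differences between embryos would then enter its values. The measure was the log10 squared coefficient of variation less its running median over genes of like mean, so that 0 is typical for a gene of that level. It was above 0 in all 5 sums for 555 genes (9.58%) and below 0 in all 5 for 759 (13.1%). Across genes, which are not independent replicates, values of any 2 of the sums had r between 0.355 and 0.583. The 15 genes with the highest lowest value were Pcbp1, Asns, Sdc4, Aqp8, Odc1, Trim43c, Zc3h7a, Id3, Rpa1, Pabpc1, Plin2, Tubb4b, Psap, Pdxp and Zfp217. Pcbp1, an RNA-binding protein, lay between 0.574 and 0.963. Asns, which makes asparagine, lay between 0.478 and 1.33, and Sdc4, a cell-surface proteoglycan, between 0.467 and 1.06. Aqp8, a water channel found among the PrE-like cells' leading genes, lay between 0.440 and 0.775. The least variable were Gm10263, Gm8730, Gm10705, Gm10335 and Gm2000, between -1.36 and -0.867. Their highest values were -1.01 to -0.867, and -0.679 to -0.536 in cells thinned to 150000 counts, so how low they lay changed with depth. Of these 5, 4 are processed pseudogenes, whose reads may come from their parent genes.

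**Figure D4:**
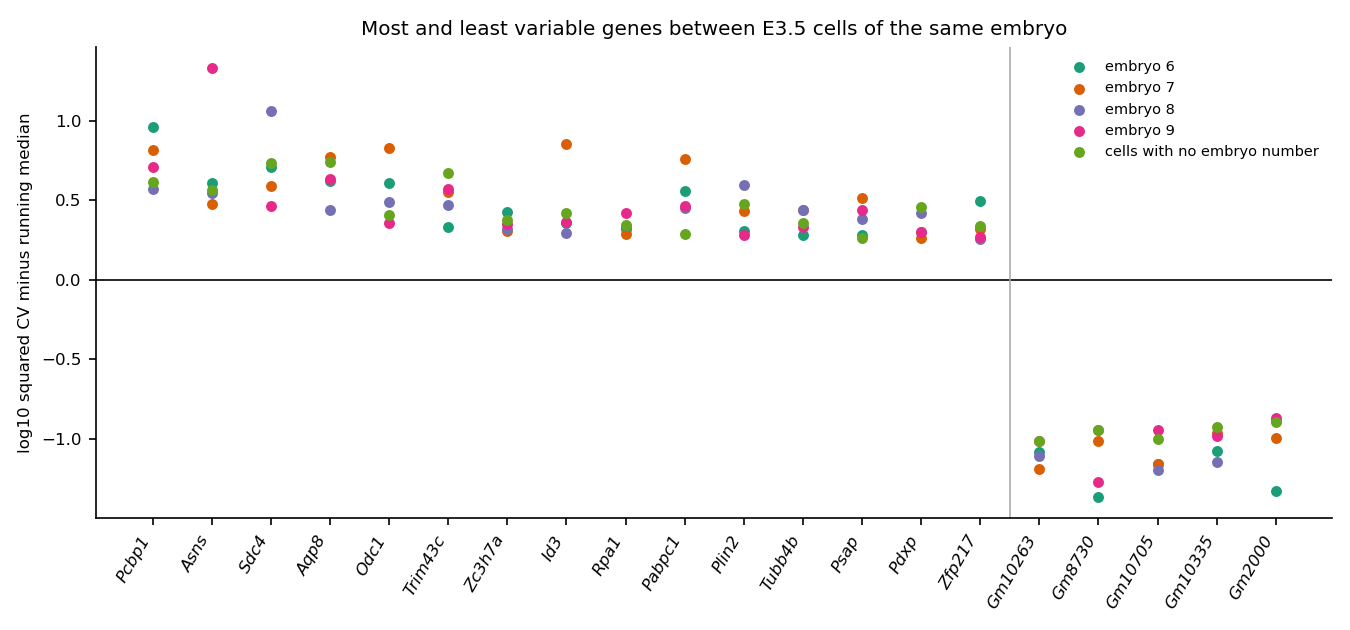
Variability between E3.5 cells within each of 5 sums (log10 squared coefficient of variation minus its running median), for the 15 most and 5 least variable genes. Points of the first 15 genes lie between 0.260 and 1.33, and those of the last 5 between -1.36 and -0.867.

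By list, the median variability was highest for PrE markers (0.296 over 7 measured) and for immediate early and heat shock genes (0.264 over 8), and it was 0.184 for PRAME-like genes and 0.184 for lysosomal genes, of which 8 of 23 were above 0 in all 5 sums. Fatty acid oxidation (0.000763 over 18), glutathione (-0.0230 over 21) and autophagy genes (0.0385 over 24) were near 0. Of the autophagy genes, 4 were above and 2 below 0 in all 5 sums, and Gabarapl2 had a median of -0.292. Bhmt had a median of 0.506, Idh1 of 0.327 and Ulk1 of 0.329.

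Principal components of the same cells were taken over the 1000 genes of highest median variability, with the mean over the cells of each sum subtracted. Component 1 held 8.38% of the variance and followed the number of genes detected (r = 0.959 over 83 cells, a description, since both come from the same counts), with Id3, Amhr2, Atad5, Calm2 and Slc30a2 at its low end and 1300001I01Rik, Cad, Trpc4ap, Cdt1 and Dgcr2 at its high end. Component 2 held 3.496% and had r = 0.0446 with genes detected and r = 0.324 with log10 total counts over the same cells. The part of depth in it was not tested. Its low end was led by Cubn and Pdgfra, an endocytic receptor and a growth factor receptor of the primitive endoderm, with Aqp8, Fat1 and Zfp704. Its high end was led by Fgf4, the ligand made by epiblast precursors, with Tagln2, Sfrp1, Cyb5r3 and Grpel2. The mean level of PrE markers had r = -0.51 with component 2 and that of epiblast markers 0.40, while immediate early and heat shock genes had 0.39. Some of these markers are among the genes that made the component. When components were taken in embryos 6 to 9 one at a time, the best matching of the first 3 had loadings with r of 0.548 to 0.695 with component 1 and 0.365 to 0.554 with component 2.

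**Figure D5:**
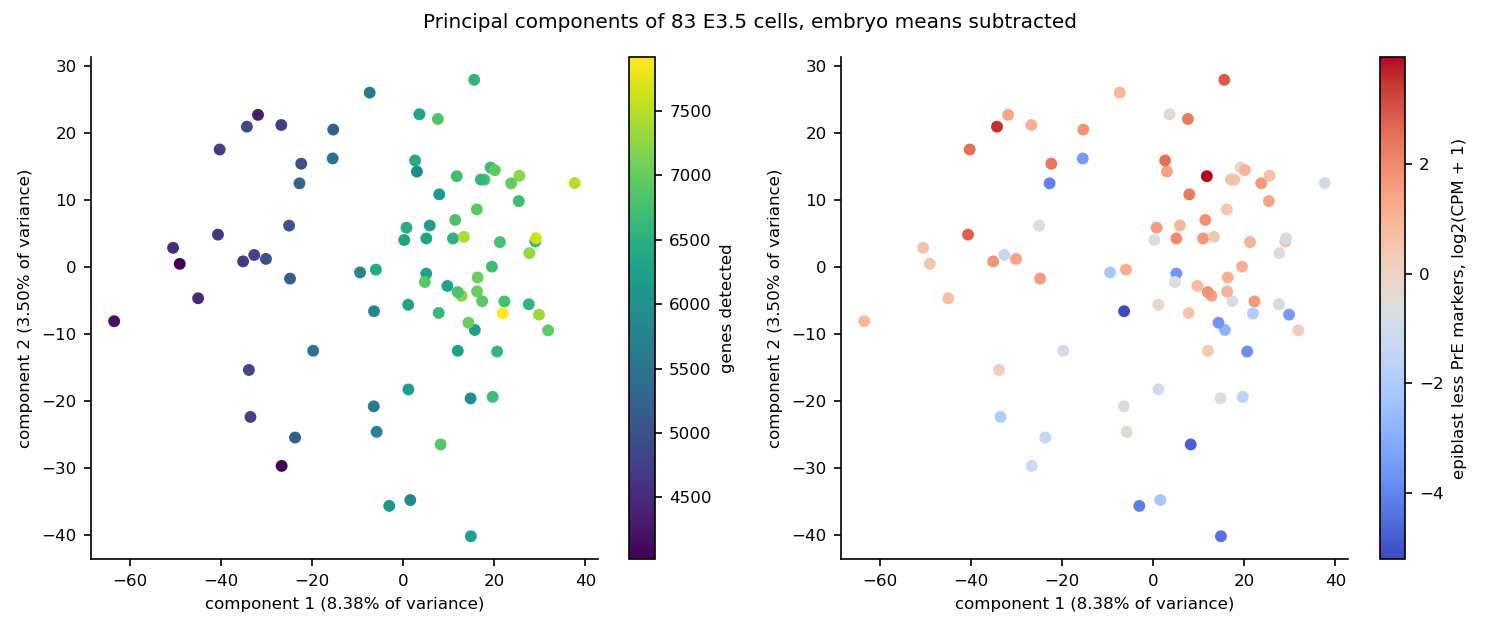
Components 1 and 2 of 83 E3.5 cells, with the mean over the cells of each sum subtracted. Colours show genes detected (left) and the mean log2(CPM + 1) of epiblast markers less that of PrE markers, centred likewise (right). Cells with few genes detected lie at the low end of component 1 (r = 0.959), and cells with more PrE than epiblast markers lie mostly at the low end of component 2.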

How the data were processed

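The values were raw counts per gene and cell as the authors deposited them. Per the study's methods and the submitters' processing notes, the authors trimmed the reads, aligned them to GRCm38 with HISAT2, kept primary alignments with MAPQ of 20 or more, counted them on genes with SeqMonk, and left out cells of low quality. The 24483 rows used lie on chromosomes 1 to 19.

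Members, gene lists and tests were chosen with earlier results of these data known. E4.5 cells were parted into 2 clusters (Ward, 10 principal components, 2000 genes, lineage markers left out) and named by those markers. Counts were summed per embryo and class where 3 or more cells were present, and fitted together in edgeR 4.0.16 (R 4.3.3). TMM scaling, the filter on low counts and the quasi-likelihood test were used. For a group without counts, folds are bounds against 3 counts over that group. Named genes followed fixed rules: the 5 markers, the 15 genes highest and 10 lowest against all later groups, up to 4 per list, the 15 most and 5 least variable, up to 5 a direction between plates, 5 at each end of 2 components, and the 10 highest per kb of exon. Further list members were named after their values were seen. A few genes that these rules or lists hold are not reported here. On simulated data with 200 genes changed 8-fold, the fit recovered 103 (1 false call) for the epiblast-like, 98 (4) for the PrE-like and 89 (1) for the plate comparison. Alternatives were DESeq2 1.42.0, relative log expression scaling, no filter, sums of at least 5 cells, 3 cells drawn per embryo, cells thinned to 150000 counts, no double wells, single plates, k-means classes, the embryo number as a block and each embryo left out. Components and figures were made in Python 3.11.15. Depth per cell was 187196 to 1442116 counts at E3.5, so levels near 0 rest on few counts, and limits for counts of 0 cover counting error only.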

Additional observations from a re-analysis of the deposited data

Results flagged for a closer look

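In the 28 genes tested, taken from the markers and the genes most apart at E3.5, 1 sum stood apart from the others by Dixon's criterion in 7 (25%). In each it was the highest sum. The criterion passes about 1 in 20 for normally distributed values. Whether these CPM are so distributed was not tested, and some lie near 0, so the share is not compared with chance. AC134841.1 was 607 CPM in the cells without an embryo number, with the next sum at 322. Gm5612 was 421 CPM in embryo 5, next to 238. AA467197 was 2924 CPM in embryo 1, next to 1709, and Pramel5 was 281 CPM there, next to 112. Car2 was 1.61 CPM in embryo 7, next to 0.340. Cd81 was 24.9 CPM in embryo 4 and 0 in the other 9 sums. Slc9a3r1 was 19.11 CPM in the cells without an embryo number, next to 6.69.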

How the results depend on the processing

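Genes higher than in epiblast-like cells numbered 1065 to 1425 when single embryos were left out (1368 with all), and genes lower 1670 to 2036 (2013 with all). With the embryo number as a replicate block, epiblast-like calls were 631 higher and 1126 lower and 552 were higher and 1398 lower than in PrE-like cells. The same sums with no replicate block, chosen after seeing the data, gave 774, 1282, 677 and 1323; fewer sums entered both fits by construction. Same-numbered sums had correlations of -0.0322 to 0.0220, so the numbers do not pair embryos. With embryos of plate P9 alone, 1279 genes were lower than in PrE-like cells, 236 were higher and 514 lower than in all 4 groups, and with those of P8 alone 1283 were lower. Between plates, calls were 147 higher and 76 lower with DESeq2 and 38 and 31 in thinned cells. They were 1 and 0 without double wells, where embryos 1 and 5 of plate P8 fell below 3 cells and left the fit. Lower calls were 17 with 3 cells drawn per embryo, 10 without a filter and 3 with relative log expression. Leaving out single embryos gave 1 to 12 higher and 0 to 7 lower. Genes with variability above 0 in all 5 sums numbered 329 at a mean of at least 50 CPM and 555 at 10, since fewer genes were then measured. For the other changes the cause was not tested. Levels near 0 rest on few counts, most of all in the 5 sums of plate P8.

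Some single-gene values changed sign or went to 0. Tex101 against epiblast-like cells was 0.00 without double wells (-7.30 with them), Dnmt3l against E6.5 was 1.75 in thinned cells (-0.11), Senp6 in plate P9 alone was -0.02 against PrE-like cells (1.34) and -1.11 against E6.5 (0.27), and Gm10263 against E6.5 was -1.07 in plate P8 alone (0.09). Cubn against epiblast-like cells was -2.66 with all embryos, and -3.13 to 2.77 with single embryos left out, the last without E4.5 embryo 5. Of 16651 single-gene values over 664 results, 15957 were counted as kept, 485 lost a call and 198 gained one. A called value counted as kept where it held its call and sign, and a value not called where it stayed so, whatever its sign. Variability values counted as kept where they moved by less than the SD over the 5 sums. Those of the 5 least variable genes moved by more in thinned cells. Without the pair of cells with trophoblast genes, an alternative chosen after seeing the data, the calls of the 5 markers and of the 15 and 10 genes most apart held, whereas Elf5 (1.38 to -7.24), Tfap2a (0.44 to -3.34), Krt18 (2.52 to -0.63) and Eomes (0.15 to -0.06) changed sign against epiblast-like cells, and Elf5 (6.49 to -2.10) and Krt18 (2.15 to -0.99) against PrE-like cells.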
